A study of Mus musculus with 20 samples.

Results

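The 10 genes described here encode chains of the receptors through which IgA+ plasma cells (PCs) can receive prolactin, cytokine and TGF-β signals: Prlr, Il6ra, Il6st, Il2rg, Il21r, Il5ra, Il10ra, Ifngr1, Tgfbr1 and Tgfbr2. They were taken from the 47069 genes of the deposited count table by the symbol paired with each Ensembl identifier, and all 10 passed the filter on low counts that left 13967 genes for testing. The set was chosen by what the genes encode, with earlier results from these same libraries, the CPM values and calls over the 4 times of day, already known. The higher Prlr level at ZT12 than at ZT0 was among those results, so the levels and differences of Prlr that involve these times are given as a description without a test.

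Wild-type C57BL/6 mice were kept under alternating light and dark with food always at hand, CD138+ IgA+ PCs of their small intestine were sorted, and poly-T-selected RNA was sequenced in bulk. The sort was gated against T cell, NK cell and B cell surface markers. Groups were ZT0, ZT6, ZT12 and ZT18, with 5 libraries each and 1 animal per library (ZT, zeitgeber time, hours after lights on). No genotype or agent differed between groups, so ZT12 against ZT0 set the start of the dark phase beside the start of the light phase, and ZT18 against ZT6 set the middle of the dark phase beside the middle of the light phase.

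The 20 libraries held 35.6 to 68.0 M counts (M, mega), of which 52.6% to 62.3% fell in immunoglobulin genes, leaving 13.98 to 29.4 M for all other genes. Plasma cell markers were abundant in every library, led by Igha with a mean of 292394 counts per M counts (CPM, scaled by the TMM method) and Jchain with 53820 CPM. Markers of other cells were low beside these, but not beside several of the receptor genes described here. The 9 macrophage and dendritic cell markers summed to 70.4 to 108 CPM, where Lyz2 averaged 19.03 CPM and Csf1r 17.8 CPM. The 10 markers of eosinophils, granulocytes and mast cells summed to 68.7 to 124 CPM, most of it Prg2 at a mean of 87.9 CPM. Macrophages and dendritic cells also carry several of the receptor chains described here. In bulk RNA, fewer cells of a type and less RNA per cell cannot be told apart.

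Cytokine receptors of class I and class II have no enzyme of their own. Ligand binding brings chains together, JAK kinases bound to the chains inside the cell phosphorylate each other and the receptor, and STAT factors docked there are phosphorylated and move to the nucleus. Several receptors pair a private chain that recognises 1 ligand with a shared chain that carries the signal: gp130 (Il6st) serves IL-6 and its relatives, and the common gamma chain (Il2rg) serves IL-2, IL-4, IL-21 and others. TGF-β receptors work differently, as serine and threonine kinases in which the type II chain (Tgfbr2) binds ligand and phosphorylates the type I chain (Tgfbr1), which in turn phosphorylates SMAD factors. In the gut, TGF-β is known for directing B cells to switch to IgA, and IL-6, IL-21, IL-5 and IL-10 have been linked to the differentiation or survival of antibody-secreting cells.

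The start regions of Prlr and of Il6st, Il2rg and Tgfbr1, the genes called between times, are shown first, so that the letters on which circadian and STAT factors could act can be read beside the levels. RefSeq (GRCm38.p6) listed windows of 300 bases, 250 before to 50 after the start, for 9 of the 10 genes, at 12 start sites in all. Capitals mark matches, on either strand, to an E-box (CACGTG), a D-box (TTATGTAA), a ROR half-site (AGGTCA), a STAT element of the GAS type (TTCNNNGAA), a glucocorticoid element core (ACANNNTGT), a CRE (TGACGTCA) or a GC box (GGGCGG). No 2 of the marked matches in the 12 windows overlapped.
Prlr start 1, chr15:10176988-10177287 (+): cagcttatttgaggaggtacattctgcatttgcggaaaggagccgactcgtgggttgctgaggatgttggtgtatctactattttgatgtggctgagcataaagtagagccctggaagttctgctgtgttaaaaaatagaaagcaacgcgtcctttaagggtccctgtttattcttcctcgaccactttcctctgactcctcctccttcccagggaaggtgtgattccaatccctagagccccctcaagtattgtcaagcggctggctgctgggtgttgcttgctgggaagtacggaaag
Prlr start 2, chr15:10223656-10223955 (+): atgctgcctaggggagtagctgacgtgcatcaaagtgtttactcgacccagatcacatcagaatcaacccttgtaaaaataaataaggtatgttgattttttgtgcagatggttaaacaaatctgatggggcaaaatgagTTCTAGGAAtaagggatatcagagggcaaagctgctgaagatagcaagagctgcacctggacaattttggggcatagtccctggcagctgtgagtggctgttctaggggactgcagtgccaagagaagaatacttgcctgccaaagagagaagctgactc
Prlr start 3, chr15:10293401-10293700 (+): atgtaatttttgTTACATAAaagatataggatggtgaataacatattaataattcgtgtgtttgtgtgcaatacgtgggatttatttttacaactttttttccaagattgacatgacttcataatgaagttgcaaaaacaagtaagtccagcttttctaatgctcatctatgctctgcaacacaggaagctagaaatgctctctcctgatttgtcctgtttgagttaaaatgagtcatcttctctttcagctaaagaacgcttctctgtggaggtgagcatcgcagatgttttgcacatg
Il6st, chr13:112463820-112464119 (+): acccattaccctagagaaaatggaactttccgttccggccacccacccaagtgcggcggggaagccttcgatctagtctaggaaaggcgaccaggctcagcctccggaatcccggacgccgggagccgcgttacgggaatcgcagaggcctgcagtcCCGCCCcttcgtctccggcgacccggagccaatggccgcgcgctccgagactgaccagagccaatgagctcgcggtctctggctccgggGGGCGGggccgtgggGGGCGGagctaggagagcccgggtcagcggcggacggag
Il2rg, chrX:101268206-101268505 (-): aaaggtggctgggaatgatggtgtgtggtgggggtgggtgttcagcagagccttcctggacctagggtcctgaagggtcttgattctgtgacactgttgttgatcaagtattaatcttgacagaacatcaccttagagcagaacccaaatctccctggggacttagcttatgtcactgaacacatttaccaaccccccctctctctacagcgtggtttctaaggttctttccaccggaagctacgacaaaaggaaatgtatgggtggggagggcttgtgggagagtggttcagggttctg
Tgfbr1 start 1, chr4:47352972-47353271 (+): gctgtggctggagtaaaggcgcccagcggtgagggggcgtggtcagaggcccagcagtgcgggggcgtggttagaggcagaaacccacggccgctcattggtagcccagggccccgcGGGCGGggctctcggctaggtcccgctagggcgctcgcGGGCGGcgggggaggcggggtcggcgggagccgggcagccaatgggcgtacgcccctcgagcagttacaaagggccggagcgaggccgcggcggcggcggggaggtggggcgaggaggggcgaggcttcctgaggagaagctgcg

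Of these, the second Prlr window held a GAS element, TTCTAGGAA, whose first base lay 110 bases before the start. GAS elements were present in 8.3% of all 32851 RefSeq windows of this length. The third Prlr window held a D-box at 238 bases before the start, a motif found in 0.938% of all windows. The Il6st window held 3 GC boxes and the first Tgfbr1 window held 2, against 35.7% of all windows with at least 1. None of the marked motifs was found in the first Prlr window or in that of Il2rg. Among the windows not printed, that of Il6ra held an E-box (7.15% of all windows), that of Il21r a ROR half-site (16.3%) and a GC box, and that of Ifngr1 a pair of GC boxes. The glucocorticoid core and the CRE, found in 6.85% and 1.79% of all windows, were in none of the 12. A match is a description of the letters and not evidence of binding.

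Levels of the 10 genes spanned a wide range. Because counts grow with transcript length, genes were set beside each other only by FPKM, the deposited fragments per kilobase and M counts, over all 20 libraries. Tgfbr1 had the highest median at 45.4 FPKM (31.5 to 52.4), followed by Il2rg at 36.7 FPKM (27.3 to 53.1) and Il6st at 26.8 FPKM (24.3 to 37.7). Ifngr1 followed at 16.7 FPKM (13.0 to 19.5) and Tgfbr2 at 13.7 FPKM (11.5 to 15.1). Both signalling chains shared between receptors thus stood near the top of the set. Prlr had a median of 3.85 FPKM (2.95 to 5.71) and Il6ra, the IL-6-binding chain, 1.48 FPKM (0.949 to 1.81). Il10ra, which binds IL-10, was lower at 0.757 FPKM (0.426 to 1.04), and the chains for IL-5 and IL-21 were lowest, with Il5ra at 0.394 FPKM (0.139 to 0.892) and Il21r at 0.333 FPKM (0.1004 to 0.789). The ranges of neighbouring genes overlapped throughout this order except between Il6st and Ifngr1, between Tgfbr2 and Prlr and between Prlr and Il6ra. Il21r rested on 9 to 71 counts per library and Il5ra on 15 to 108.

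**Figure D1:**
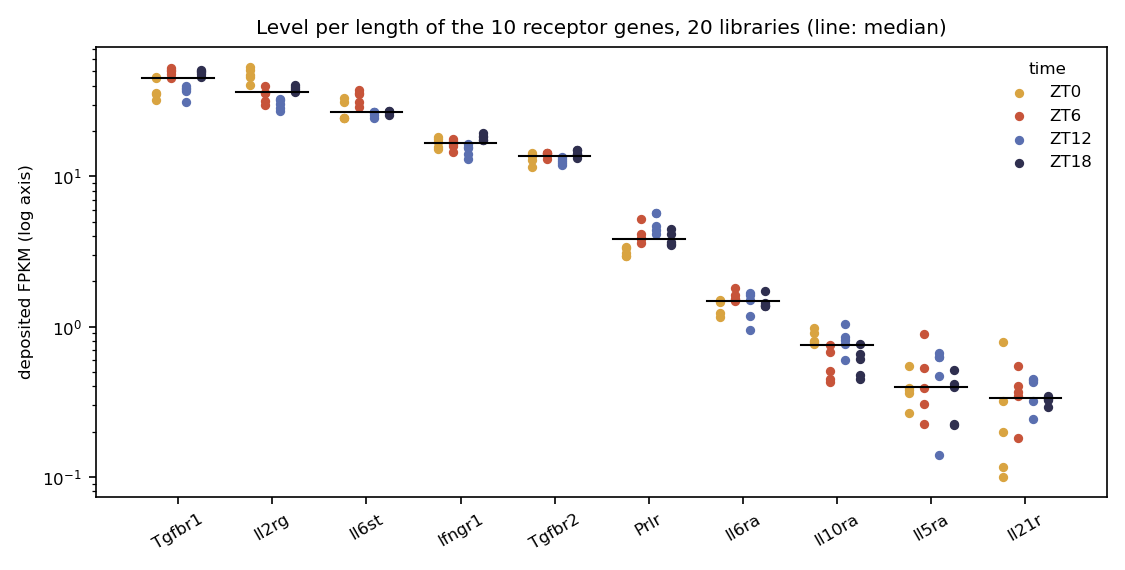
Deposited FPKM (log axis) of the 10 receptor genes in each of the 20 libraries, coloured by time of day in the order ZT0, ZT6, ZT12, ZT18, with the median over all libraries as a line. Tgfbr1, Il2rg and Il6st have the highest medians (45.4, 36.7 and 26.8 FPKM), and Il21r the lowest (0.333 FPKM).

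The order depends on the length used. The FPKM values implied 1 length per gene, 2513 bases for Prlr and 2846 for Il6st, whereas the merged GENCODE exons of these genes span 15339 and 11099 bases. With the merged lengths, Tgfbr1 and Il2rg kept their first and second places, Tgfbr2 moved to place 3 ahead of Il6st, and Prlr moved to place 8 behind Il6ra and Il10ra.

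Prlr is not counted in any test that uses ZT0 or ZT12. Across the 4 times, 3 of the 9 other genes were called at an adjusted p under 0.01 for any difference (edgeR's quasi-likelihood test, adjusted over all 13967 genes): Il2rg, Tgfbr1 and Il6st. In all, 19.5% of tested genes were called, and as the genes were chosen with results known, nothing is read from their share. The test of a 24-hour cosine called 2 of the 9, Il2rg and Il6st, against 11.3% of all genes. The ratio of the highest to the lowest time mean had a median of 1.36 over the 10 receptor genes and 1.26 over all tested genes. The former includes Prlr (1.76), whose result was known. It also includes Il10ra (1.59), Il5ra (1.51) and Il21r (1.38), which were lowest in level and spread most between libraries. Nothing is read from this comparison either. The genes did not share a phase: Prlr was highest at ZT12, Il2rg at ZT0 and Il6st at ZT6, whereas Tgfbr1 was high at both ZT6 and ZT18.

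**Figure D2:**
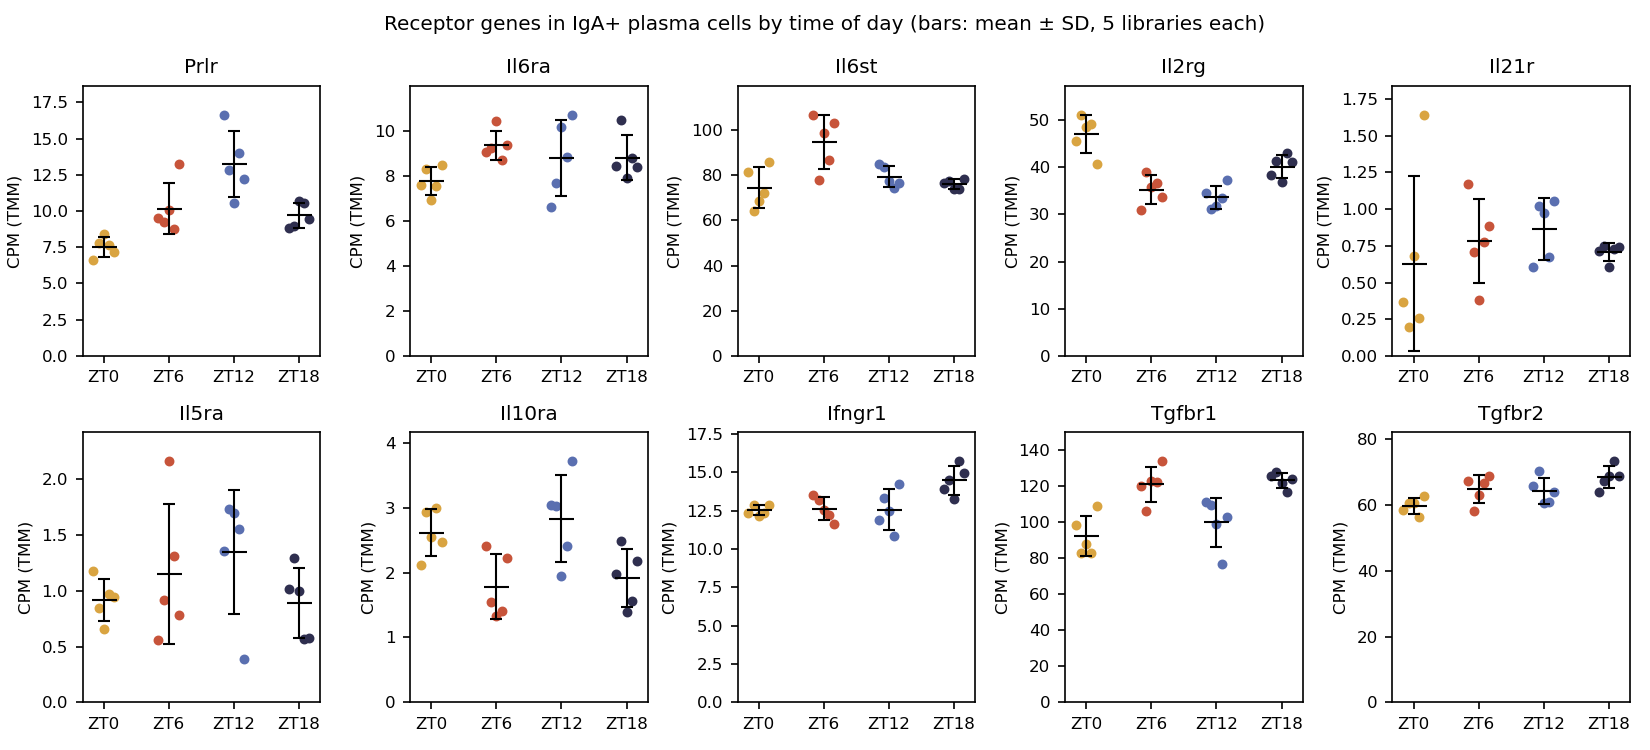
TMM-scaled CPM of each receptor gene by time of day, 5 libraries per time, with points for libraries and bars for the mean ± SD. Prlr is highest at ZT12 (13.2 CPM) and lowest at ZT0 (7.51 CPM), Il2rg is highest at ZT0 (47.0 CPM), Il6st at ZT6 (94.7 CPM), and Tgfbr1 stands at 121 CPM at ZT6 and 123 CPM at ZT18 against 92.5 CPM at ZT0.

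Prlr (ENSMUSG00000005268, GRCm38 chr15:10177238-10349180, + strand) encodes the prolactin receptor, a class I receptor that signals through JAK2 and STAT5. Its 5 libraries of ZT0 had 6.61, 7.77, 8.40, 7.64 and 7.15 CPM. At ZT6 the values were 9.50, 9.24, 10.1, 8.77 and 13.2 CPM. At ZT12 they were 16.6, 12.8, 10.6, 14.01 and 12.2 CPM. At ZT18 they were 8.81, 8.95, 10.7, 10.6 and 9.46 CPM. Every library of ZT6, ZT12 and ZT18 stood above every library of ZT0, while the libraries of ZT6, ZT12 and ZT18 overlapped. Mean Prlr was 13.2 ± 2.27 CPM at ZT12 and 7.51 ± 0.674 CPM at ZT0 (SD, n = 5 each), a fitted ratio of 1.76, and a fitted 24-hour cosine peaked at 11.7 h with a peak-to-trough ratio of 1.77. The other 12-hour pair showed no call: mean Prlr was 9.69 ± 0.886 CPM at ZT18 and 10.2 ± 1.78 CPM at ZT6, a log2 difference of -0.07 ± 0.11 (SE) with an adjusted p of 0.74. Without library 5 of ZT6, the highest of its group, this difference was 0.05 on the log2 scale. The gene for the ligand, Prl, did not pass the filter on low counts. A second gene model on the same strand shares exons with Prlr and held 0 counts.

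Il6st (ENSMUSG00000021756, chr13:112464070-112510086, + strand) encodes gp130, the signalling chain shared by IL-6, IL-11, LIF and oncostatin M. It was highest at ZT6, with 107, 77.9, 98.8, 86.8 and 103 CPM, against 81.6, 64.0, 68.5, 72.0 and 85.7 CPM at ZT0. ZT12 libraries had 84.8, 83.5, 77.3, 74.3 and 76.7 CPM and ZT18 libraries 76.7, 77.5, 73.9, 74.0 and 78.5 CPM. Of the 5 ZT6 libraries, 4 were above every library of the other times, and library 2 lay among them. Il6st rose at ZT6 against ZT0 by 0.35 ± 0.08 on the log2 scale (adjusted p = 0.0022), a call lost with library totals in place of TMM (0.30, adjusted p = 0.0111). It fell at ZT18 against ZT6, with a log2 difference of -0.31 ± 0.08 (adjusted p = 0.0054). Any difference between times gave an adjusted p of 0.00263 and the cosine 0.00884, with a peak at 7.1 h and a peak-to-trough ratio of 1.26. The call for any difference was lost when library 1, 3 or 5 of ZT6 was left out (adjusted p of up to 0.0136), and that of ZT18 against ZT6 when any of 7 single libraries was left out, libraries 1, 3 and 5 of ZT6 and 1, 3, 4 and 5 of ZT18 (adjusted p of up to 0.019). The cosine call was lost without any 1 of 12 libraries, those 3 of ZT6, library 4 of ZT0, libraries 1, 2 and 3 of ZT12 and all 5 of ZT18 (adjusted p of up to 0.026). The summed level of 7 B cell markers, led by Bach2 at a mean of 4.40 CPM and Cr2 at 0.846 CPM with none at 0 in all libraries, was likewise highest on average at ZT6, at 9.64 ± 2.34 CPM (SD, n = 5). Bach2 made up most of this sum and, of 5 markers tested, was the 1 called between times (adjusted p = 0.0027, against 0.11 for Cr2). The sum ranged over 5.76 to 12.1 CPM at ZT6, against 3.99 to 7.81 CPM at the other times, so that the ranges overlapped. Its part in the Il6st difference was not tested.

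Il6ra (ENSMUSG00000027947, chr3:89864059-89913196, - strand) encodes the chain that binds IL-6 and joins gp130. It was not called between any times (adjusted p = 0.215), with means of 7.76 ± 0.627 CPM at ZT0, 9.35 ± 0.650 at ZT6, then 8.79 ± 1.70 at ZT12 and 8.80 ± 0.986 at ZT18. The ZT6 libraries ranged from 8.69 to 10.4 CPM and did not overlap those of ZT0, at 6.91 to 8.47 CPM, but the log2 difference of 0.27 ± 0.11 had an adjusted p of 0.090. Per length, Il6st exceeded Il6ra in every library, with FPKM ratios of 20.2 ± 2.40 at ZT0, 21.4 ± 2.75 at ZT6, then 19.8 ± 5.08 at ZT12 and 18.4 ± 1.75 at ZT18. An antisense gene overlaps Il6ra, but it held 32 counts in all libraries together.

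Il2rg (ENSMUSG00000031304, chrX:101264378-101268255, - strand) encodes the common gamma chain, whose signal passes through JAK3. The ZT0 libraries had 45.7, 51.1, 48.5, 49.3 and 40.6 CPM. The ZT6 libraries had 31.0, 39.0, 35.9, 36.5 and 33.7 CPM. The ZT12 libraries had 34.4, 31.2, 31.8, 33.4 and 37.3 CPM, and the ZT18 libraries 38.3, 41.2, 36.8, 43.0 and 41.0 CPM. All ZT0 libraries were above all of ZT6 and ZT12. The ZT18 mean lay between, but the ZT18 libraries overlapped those of each other time. Il2rg fell at ZT12 against ZT0, with a log2 difference of -0.48 ± 0.06 (adjusted p = 2.4e-06), and at ZT6 against ZT0 with -0.42 ± 0.06 (adjusted p = 1.8e-05). It was higher at ZT18 than at ZT12 by 0.25 ± 0.06 (adjusted p = 0.0050), a call lost without any of 6 single libraries (adjusted p of up to 0.024) and when the 3 libraries richest in epithelial counts, library 4 of ZT6, 2 of ZT12 and 3 of ZT18, were left out together (adjusted p = 0.0151). ZT0 against ZT18 gave 0.23 ± 0.06 (adjusted p = 0.012) and ZT18 against ZT6 gave 0.19 ± 0.06 (adjusted p = 0.044), neither called by edgeR. DESeq2 called the first of these (adjusted p = 0.0089), as did edgeR with library totals or with either other count filter (adjusted p of 0.0056 to 0.0096). The cosine peaked at 22.6 h with a peak-to-trough ratio of 1.43 (adjusted p = 1.1e-06). The ZT12 decrease was called in every alternative in which it was fitted. The 6 libraries whose loss ended the ZT18 call against ZT12 were libraries 2, 3 and 4 of ZT12 and 2, 4 and 5 of ZT18. A second gene model on the same strand shares exons with Il2rg and held 0 counts. T cells also carry the common gamma chain. The summed level of 10 markers of T cells and innate lymphoid cells (ILC) ranged from 27.3 to 32.7 CPM at ZT0, 24.5 to 32.4 at ZT6, then 24.2 to 27.6 at ZT12 and 21.9 to 25.6 at ZT18. Cd4, at a mean of 24.8 CPM, made up most of it and was called between times (adjusted p = 0.00041), whereas Trac averaged 0.593 CPM and Cd3e 0.184 CPM, neither of them called, and none of the 10 was at 0 in all libraries. The part of these cells in the Il2rg difference was not tested.

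Il21r (ENSMUSG00000030745, chr7:125603429-125633570, + strand), the private chain for IL-21 that pairs with the common gamma chain, was near the floor of detection. Its lowest, median and highest values were 0.2003, 0.365 and 1.64 CPM at ZT0, 0.378, 0.774 and 1.17 CPM at ZT6, then 0.604, 0.977 and 1.06 CPM at ZT12, and 0.604, 0.728 and 0.748 CPM at ZT18. The groups overlapped and no difference was called (adjusted p = 0.792 for any times). Il5ra (ENSMUSG00000005364, chr6:106710357-106749037, - strand) binds IL-5 and signals with a beta chain shared with the receptors for IL-3 and GM-CSF. It had means of 0.921 ± 0.189 CPM at ZT0, 1.15 ± 0.628 at ZT6, then 1.34 ± 0.555 at ZT12 and 0.891 ± 0.314 at ZT18, and was not called (adjusted p = 0.429). Differences of the size seen in the other receptor genes could not be resolved at these counts: the 95% interval of the log2 difference of ZT12 against ZT0 ran from -0.34 to 1.25 for Il21r and from -0.13 to 1.22 for Il5ra. Eosinophils and mast cells can carry Il5ra as well. Of 10 markers of these cells and granulocytes, 1 (Cpa3) was at 0 in every library and Epx averaged 0.0062 CPM, while Prg2 averaged 87.9 CPM and Kit 0.387 CPM.

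Il10ra (ENSMUSG00000032089, chr9:45253837-45269149, - strand) binds IL-10, an anti-inflammatory cytokine, and signals mainly through STAT3. The ZT0 libraries had 2.11, 2.94, 2.54, 3.00 and 2.48 CPM and those of ZT12 3.04, 3.03, 1.95, 2.42 and 3.71 CPM, whereas ZT6 libraries had 2.41, 1.55, 1.32, 1.41 and 2.23 CPM and ZT18 libraries 1.98, 2.48, 1.39, 1.56 and 2.18 CPM. The means were higher at ZT0 and ZT12 than at ZT6 and ZT18, but the libraries overlapped between all times and the difference did not pass the threshold (adjusted p = 0.0254 for any times). The summed macrophage and dendritic cell markers ranged from 81.8 to 108 CPM at ZT0, 70.4 to 105 at ZT6, then 87.5 to 102 at ZT12 and 74.7 to 85.5 at ZT18, none of the 9 being at 0 in all libraries, and their part in the Il10ra levels was not tested. Ifngr1 (ENSMUSG00000020009, chr10:19591949-19610229, + strand) encodes the chain that binds interferon-γ. Its means were 12.5 ± 0.329 CPM at ZT0, 12.6 ± 0.752 at ZT6, then 12.6 ± 1.32 at ZT12 and 14.5 ± 0.941 at ZT18. Every ZT0 library, up to 12.9 CPM, was below every ZT18 library, from 13.3 CPM, yet the log2 difference of ZT0 against ZT18, -0.21 ± 0.08, had an adjusted p of 0.072 and no comparison of Ifngr1 was called (adjusted p = 0.0745 for any times).

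Tgfbr1 (ENSMUSG00000007613, chr4:47353222-47414931, + strand), the type I kinase that phosphorylates SMAD2 and SMAD3, followed a course with 2 high times. ZT0 libraries had 98.6, 83.0, 88.3, 83.3 and 109 CPM and ZT6 libraries 120, 106, 123, 122 and 134 CPM. ZT12 libraries had 112, 109, 98.9, 77.2 and 103 CPM and ZT18 libraries 126, 128, 122, 117 and 124 CPM. All ZT18 libraries were above all ZT0 and ZT12 libraries, and 1 ZT0 library overlapped ZT6. Tgfbr1 rose at ZT6 against ZT0 by 0.39 ± 0.09 on the log2 scale (adjusted p = 0.0031), a call lost without library 2, 3 or 4 of ZT0 or library 5 of ZT6 (adjusted p of up to 0.012) or without the 3 epithelial-rich libraries together (adjusted p = 0.0131). It was lower at ZT0 than at ZT18, with a log2 difference of -0.42 ± 0.09 (adjusted p = 0.0021) that remained called without any 1 library. ZT12 against ZT6 gave -0.28 ± 0.09 (adjusted p = 0.045) and ZT18 against ZT12 gave 0.30 ± 0.09 (adjusted p = 0.017), neither called by edgeR. DESeq2 called both (adjusted p = 0.0081 and 0.0020), as did edgeR with library totals (adjusted p = 0.00068 and 0.00054), and ZT18 against ZT12 was also called with no count filter (adjusted p = 0.0059) and with the replicate block (adjusted p = 0.0029). Any difference had an adjusted p of 0.00115, whereas the 24-hour cosine gave 0.604.

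Tgfbr2 (ENSMUSG00000032440, chr9:116084293-116175360, - strand), the type II kinase that binds TGF-β, had time means of 59.7 ± 2.41 CPM at ZT0, 64.8 ± 4.26 at ZT6, then 64.3 ± 4.01 at ZT12 and 68.4 ± 3.33 at ZT18, and was not called (adjusted p = 0.0343 for any times). The largest difference was ZT0 against ZT18, with libraries that did not overlap, at 56.2 to 62.6 CPM at ZT0 and 64.0 to 73.2 CPM at ZT18, and a log2 difference of -0.20 ± 0.05 (adjusted p = 0.011, not called by edgeR). DESeq2 called it (adjusted p = 0.0048), as did edgeR when genes averaging under 1 CPM were dropped (adjusted p = 0.0098). The ratio of Tgfbr1 to Tgfbr2 in FPKM was 2.93 ± 0.300 at ZT0, 3.54 ± 0.142 at ZT6, then 2.94 ± 0.320 at ZT12 and 3.43 ± 0.266 at ZT18, without a test of the ratio. In TMM-scaled CPM both chains had their highest mean at ZT18 and their lowest at ZT0. For Tgfbr1 the log2 difference of ZT18 against ZT6 was 0.03 ± 0.09 (adjusted p = 0.89 by edgeR). In FPKM, which is not TMM-scaled, both had their lowest mean at ZT12, and Tgfbr1 had its highest at ZT6.

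**Figure D3:**
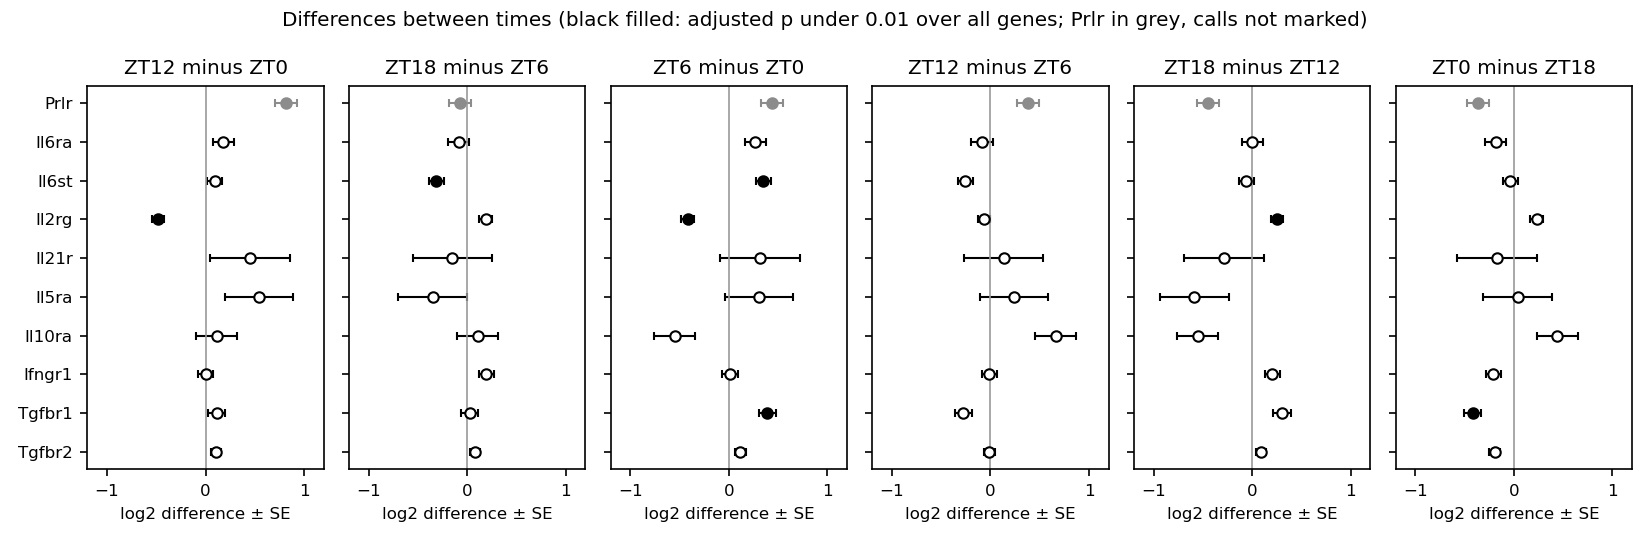
Log2 differences ± SE of the 10 receptor genes in the 6 comparisons, with black filled points for an adjusted p under 0.01 over all genes tested and Prlr in grey with its calls not marked. Il2rg lies below 0 at ZT12 minus ZT0 (-0.48) and ZT6 minus ZT0 (-0.42), while Il6st (0.35) and Tgfbr1 (0.39) lie above 0 at ZT6 minus ZT0.

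The 10 genes are next given by comparison, each count beside the share of all tested genes, from which nothing is read about the set. ZT12 against ZT0 called 1 of the 9 genes tested there, with 3.86% of all genes called: Il2rg was lower (1.9% of all genes), and its libraries did not overlap (7.23% of all genes). ZT18 against ZT6, in which all 10 were tested, called 1, Il6st, which was lower, with 8.24% of all genes called (4.05% higher and 4.2% lower), and the libraries overlapped for each of the 10 (11.5% of all genes did not overlap). In the 6-hour steps, ZT6 against ZT0 called 3 of 9, with 8.78% of all genes called. Tgfbr1 and Il6st were higher (4.65% of all genes) and Il2rg lower (4.13%), and the libraries of Il6ra and Il2rg did not overlap (10.3%). ZT12 against ZT6 called 0 of 9 by edgeR, with 4.58% of all genes called (2.34% higher and 2.24% lower), although 3 had an unadjusted p under 0.05. DESeq2 called 1, Tgfbr1, lower, with 955 of the 12534 genes it tested called. With library totals edgeR called Tgfbr1 and Il6st, both lower, with 747 of 13967 genes called. No libraries of the receptor genes stood apart in that step (7.95% of all genes did). ZT18 against ZT12 called 1 of 9, Il2rg, higher, with 9.94% of all genes called (4.8% higher and 5.14% lower), and the libraries of Tgfbr1 did not overlap (12.6%). DESeq2 called 2, Il2rg and Tgfbr1, both higher, with 1701 of the 12916 genes it tested called. ZT0 against ZT18 called 1 of 9, Tgfbr1, lower, with 7.57% of all genes called (3.38% higher and 4.19% lower). DESeq2 called 3, Tgfbr1 and Tgfbr2, lower, and Il2rg, higher, with 1303 of the 12534 genes it tested called. The libraries of Ifngr1, Tgfbr1 and Tgfbr2 did not overlap in that step (10.1%). Libraries of Prlr, given as a description, did not overlap in any of the 3 pairs that include ZT0. These comparisons share libraries with each other.

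Genes encoding stress-induced and immediate early factors moved with part of this pattern. The summed level of 10 such genes, led by Fosb at a mean of 2889 CPM and Jun at 607 CPM, ranged from 4326 to 8283 CPM at ZT0, 2016 to 4054 CPM at ZT6, then 4823 to 8987 CPM at ZT12 and 2967 to 6027 CPM at ZT18. None of the 10 was at 0 in all libraries, and 4 of them were themselves called between times. The lowest Tgfbr1 level, 77.2 CPM, was in library 4 of ZT12, where this sum was 8361 CPM. But Tgfbr1 was 103 CPM in library 5 of ZT12, which had the highest sum, 8987 CPM. It was 128 CPM in library 2 of ZT18, with a sum of 6027 CPM. The lowest Il6st level, 64.0 CPM, was in library 2 of ZT0, with a sum of 8283 CPM. Il6st was also low in libraries 3 and 4 of ZT18, at 73.9 and 74.0 CPM, with sums of 2967 and 3802 CPM. With the log2 sum as a covariate, an analysis added after the data were seen, 1 of the 9 genes tested was called between times, Il2rg. Of all 13967 genes, 1755 were then called between times, against 2727 without the covariate. At ZT6 against ZT0 the covariate left 119 of all genes called, against 1226, and at ZT0 against ZT18 it left 563, against 1057. With the covariate, the log2 difference of ZT6 against ZT0 was 0.13 for Tgfbr1 (adjusted p = 0.588), 0.03 for Il6st (adjusted p = 0.905) and -0.16 for Il2rg (adjusted p = 0.338). That of Tgfbr1 for ZT0 against ZT18 was -0.29 (adjusted p = 0.0192). The decrease of Il2rg at ZT12 against ZT0 was -0.50 (adjusted p = 3.1e-08). As the sum itself differed between times, its part and that of the time cannot be told apart.

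**Figure D4:**
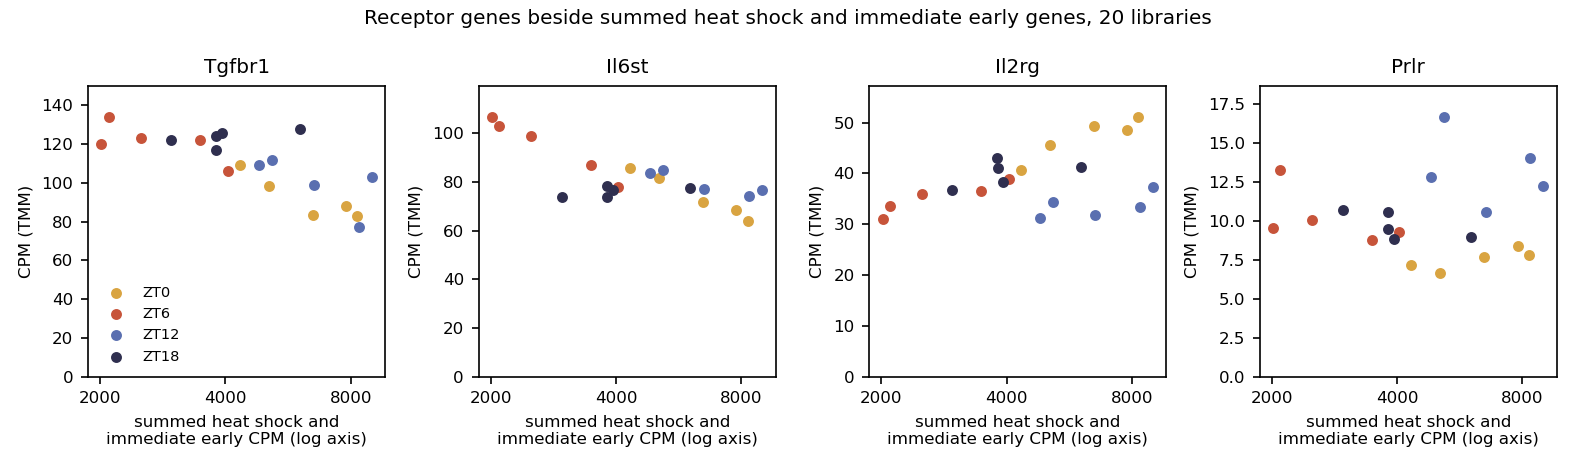
TMM-scaled CPM of Tgfbr1, Il6st, Il2rg and Prlr against the summed CPM of 10 heat shock and immediate early genes (log axis), 1 point per library, coloured by time. Sums range from 2016 to 4054 CPM at ZT6 and from 4326 to 8283 CPM at ZT0. The lowest Tgfbr1 and Il6st points lie at high sums, while libraries 3 and 4 of ZT18 have low Il6st at lower sums. Library 2 of ZT18 has high Tgfbr1 (128 CPM) at a sum of 6027 CPM.

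The genes whose levels followed Prlr and each of the 3 called receptor genes most closely over the 20 libraries were sought among 7783 genes outside the immunoglobulin loci that averaged 5 CPM or more. For Prlr these were Tex264, which encodes a receptor for autophagy of the endoplasmic reticulum (Pearson r = 0.86, Spearman rho = 0.84), and P4hb, which encodes protein disulfide isomerase (r = 0.84, rho = 0.79). P4hb averaged 390 ± 9.16, 411 ± 16.5, 465 ± 14.5 and 423 ± 13.3 CPM at ZT0, ZT6, ZT12 and ZT18. For Il2rg they were Ncf4, a subunit of the phagocyte NADPH oxidase (r = 0.93, rho = 0.90), and Icam1, an adhesion molecule (r = 0.90, rho = 0.88), which averaged 42.7 ± 2.56, 14.9 ± 2.15, 18.6 ± 3.13 and 23.6 ± 2.86 CPM at the same times. For Tgfbr1 they were Klf3, a transcriptional repressor (r = 0.95, rho = 0.89), and St8sia4, a polysialyltransferase (r = 0.94, rho = 0.91). For Il6st they were the potassium channel gene Kcnk6 (r = 0.85, rho = 0.77) and the ubiquitin ligase gene Arel1 (r = 0.84, rho = 0.66). These are descriptions of likeness over libraries that share their groups, scaling and depth, picked as the highest of many.

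Lists of other genes of the receptor pathways were, like the receptor genes, drawn up with results known, and nothing is read from the share of any list. Of 4 JAK kinases, 3 were called between any times, Tyk2, Jak3 and Jak2, and of 7 STAT factors 6 were called, among them Stat6, Stat4 and Stat3, against 19.5% of all genes. Jak3, the partner of the common gamma chain, averaged 35.4 ± 1.62 CPM at ZT0, 22.6 ± 1.29 at ZT6, then 22.1 ± 1.33 at ZT12 and 25.9 ± 2.70 at ZT18, highest at ZT0 as Il2rg was. It fell at ZT12 against ZT0, with a log2 difference of -0.68 ± 0.06 (adjusted p = 5.6e-09). Tyk2, a kinase of interferon and IL-10 family receptors, averaged 112 ± 3.68, 63.4 ± 4.14, 75.5 ± 5.37 and 85.5 ± 3.02 CPM at ZT0, ZT6, ZT12 and ZT18. It fell at ZT12 against ZT0 with -0.57 ± 0.05 (adjusted p = 4.6e-09) and rose at ZT18 against ZT6 by 0.43 ± 0.05 (adjusted p = 3.8e-07). Stat6, activated by IL-4, fell at ZT12 against ZT0 (-0.25 ± 0.06, adjusted p = 0.0056) and rose at ZT18 against ZT6 (0.28 ± 0.06, adjusted p = 0.00072), whereas Stat3, activated through gp130 and IL-10 receptors, rose at ZT18 against ZT6 (0.26 ± 0.05, adjusted p = 0.00024) and had -0.10 ± 0.05 at ZT12 against ZT0 (adjusted p = 0.26). Jak2, the kinase of the prolactin receptor, averaged 70.3 ± 8.81 CPM at ZT18, against 54.6 ± 5.92 CPM at ZT6, a log2 difference of 0.37 ± 0.09 just outside the threshold (adjusted p = 0.0101). The ZT12 call of Stat6 was lost without library 3, 4 or 5 of ZT0 or library 1, 2, 3 or 4 of ZT12 (adjusted p of up to 0.031), and with library totals in place of TMM the ZT18 calls of Stat6 (adjusted p = 0.0112) and Stat3 (adjusted p = 0.0339) were lost.

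Other receptor chains of class I and II showed 11 of 24 tested genes called between any times, from 33 listed, against 19.5% of all genes. At ZT12 against ZT0, 0 of them rose (1.96% of all genes) and 3 fell (1.9%), namely Ifnar1, Csf2ra and Ifngr2, with a median log2 difference of -0.22 over the list and -0.0017 over all genes. Ifnar1, a chain of the type I interferon receptor, averaged 78.4 ± 7.505 CPM at ZT12 and 97.8 ± 10.8 CPM at ZT0, with -0.32 ± 0.07 on the log2 scale (adjusted p = 0.0028), a call lost without library 4 or 5 of ZT0 or library 1 or 4 of ZT12 (adjusted p of up to 0.013). Csf2ra, which binds GM-CSF, averaged 8.06 ± 0.913 CPM at ZT12 and 12.8 ± 1.57 CPM at ZT0 (-0.66 ± 0.10, adjusted p = 3.6e-05). Il10rb, the chain that joins Il10ra, was called between any times (adjusted p = 6.1e-07), with 29.7 ± 2.28, 34.9 ± 1.87, 27.7 ± 2.03 and 38.9 ± 3.46 CPM at ZT0, ZT6, ZT12 and ZT18. At ZT18 against ZT6, 2 of the chains rose (4.05% of all genes), Ifngr2 and Il2rb, and 2 fell (4.2%), Il9r and Il3ra. Ifngr2, which joins Ifngr1, and the other chains of these counts without values were named after their values were seen.

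Negative regulators and induced genes of the STAT pathway are given next, from lists that like the others were drawn up with results known. Of 17 SOCS and phosphatase genes, 2 were called between any times, against 19.5% of all genes. Ptpn6, which encodes the phosphatase SHP-1, fell at ZT12 against ZT0 (-0.42 ± 0.07, adjusted p = 0.00028) and rose at ZT18 against ZT6 (0.59 ± 0.07, adjusted p = 2.2e-06), and Socs2, a STAT5-induced inhibitor, was highest at ZT6 at 40.6 ± 4.56 CPM, against 28.3 ± 3.19 CPM at ZT0. Of 9 STAT-induced genes, 7 were called between any times, and at ZT12 against ZT0 5 fell and 0 rose, against 1.9% and 1.96% of all genes. Bcl3 averaged 12.8 ± 1.69 CPM at ZT12 and 19.97 ± 2.07 CPM at ZT0 (-0.64 ± 0.09, adjusted p = 1.2e-05). Irf1 had -0.28 ± 0.07 (adjusted p = 0.0090) and Mcl1, a survival factor of PCs, -0.15 ± 0.04 (adjusted p = 0.0049). At ZT18 against ZT6 (4.05% of all genes higher and 4.2% lower), 2 of the 9 rose, Bcl3 among them (0.60 ± 0.09, adjusted p = 2.2e-05), and 3 fell, Irf1 among them (-0.31 ± 0.07, adjusted p = 0.0023). Irf1, Bcl3 and Mcl1 also answer to other pathways. The ZT12 call of Irf1 was lost without any 1 of 13 libraries, libraries 2 to 5 of ZT0, 2 to 4 of ZT6, 1, 2, 3 and 5 of ZT12 and 4 and 5 of ZT18 (adjusted p of up to 0.035), its ZT18 call without library 1 of ZT6 or of ZT18 (up to 0.011), and the ZT12 call of Mcl1 without library 2, 3 or 4 of ZT0 or library 1, 2 or 3 of ZT12 (up to 0.031).

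On the TGF-β side, 1 of 6 tested family receptors was called between any times (19.5% of all genes), Bmpr1a, a type I receptor for bone morphogenetic proteins, with 9.04 ± 1.51, 7.07 ± 0.887, 7.02 ± 0.621 and 8.96 ± 1.38 CPM at ZT0, ZT6, ZT12 and ZT18. Of 13 tested SMAD factors and regulators, 7 were called, with 0 in either direction at ZT12 against ZT0 (3.86% of all genes) and 1 higher at ZT18 against ZT6 (4.05%). That gene was Ski, a repressor of SMAD signalling, with 51.7 ± 2.80 CPM at ZT18 and 39.6 ± 5.61 CPM at ZT6 (0.39 ± 0.08, adjusted p = 0.0015), a call lost with library totals in place of TMM (adjusted p = 0.027). Smurf2, a ubiquitin ligase of SMADs and receptors, and Tgif1, a co-repressor, were called between any times (adjusted p = 0.0019 and 0.00217). Of 7 TGF-β-induced genes, 1 was called. Pmepa1, a feedback inhibitor, averaged 7.18 ± 0.419 CPM at ZT18 and 3.94 ± 0.891 CPM at ZT6 (0.87 ± 0.14, adjusted p = 2.4e-05).

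Among 13 ligand genes 4 passed the filter on low counts, as did 13967 of all 47069 genes, and nothing is read from this count. Prl, Il6, Il21, Il5, Il2, Il4, Ifng, Tgfb2 and Lif did not pass. Tgfb1, the ligand of Tgfbr2 and Tgfbr1, averaged 47.8 ± 5.84 CPM at ZT0, 33.0 ± 1.35 at ZT6, then 38.9 ± 3.38 at ZT12 and 48.6 ± 2.66 at ZT18. It fell at ZT12 against ZT0 (-0.30 ± 0.07, adjusted p = 0.0031, lost without library 3 or 5 of ZT0 or library 1, 2 or 3 of ZT12 at an adjusted p of up to 0.023) and rose at ZT18 against ZT6 (0.56 ± 0.07, adjusted p = 2.7e-07). Tgfb3 was low, with 2.12 ± 0.819, 3.35 ± 0.357, 3.43 ± 0.838 and 3.97 ± 0.553 CPM at ZT0, ZT6, ZT12 and ZT18 (adjusted p = 0.00486 for any times). Of 4 genes for receptor shedding and trimming, 2 were called between any times, against 19.5% of all genes. These were Furin, which cleaves the TGF-β precursor, with means of 31.2 to 37.1 CPM, and Adam10, a sheddase, with 38.3 to 46.9 CPM. Neither differed by a call at ZT12 against ZT0 or at ZT18 against ZT6.

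**Figure D5:**
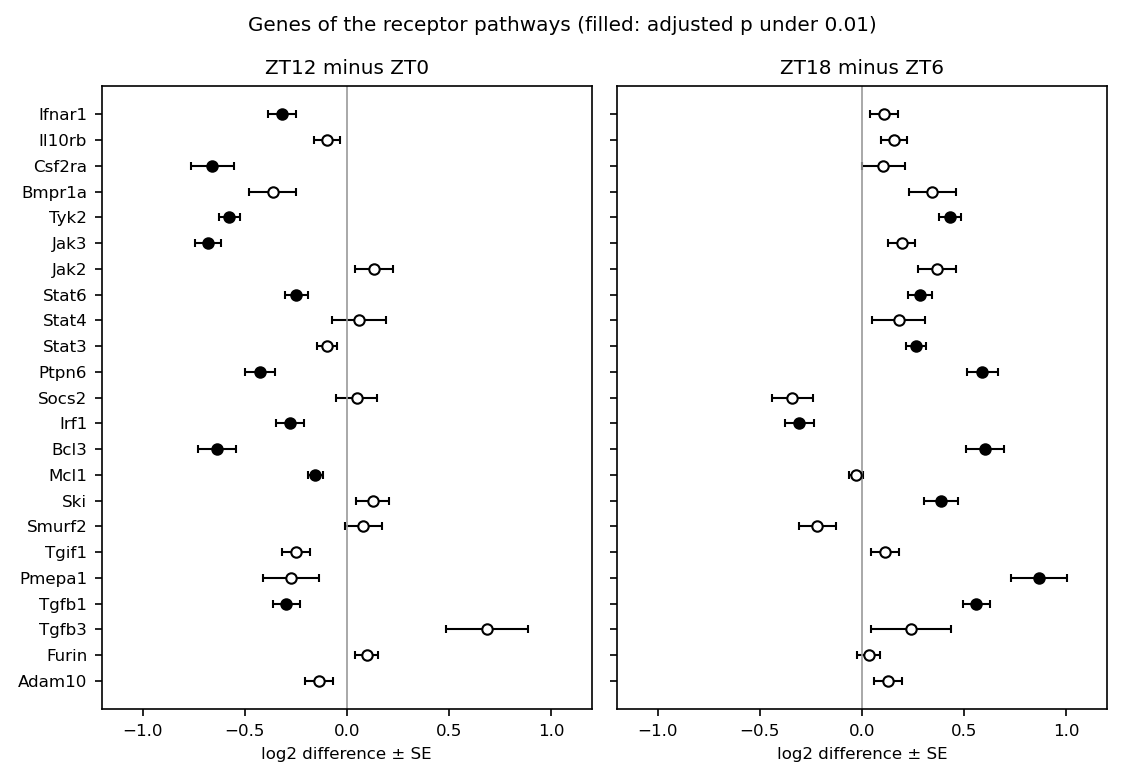
Log2 differences ± SE of 23 genes of the receptor pathways for ZT12 minus ZT0 (left) and ZT18 minus ZT6 (right), filled where the adjusted p was under 0.01. Jak3 (-0.68) and Csf2ra (-0.66) lie farthest below 0 in the left panel, and Pmepa1 (0.87) farthest above 0 in the right panel.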

How the data were processed

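The 20 libraries were single-animal samples of sorted small-intestinal IgA+ PCs. The authors deposited raw counts of 47069 genes and FPKM of 18886, and for all 18071 genes that could be checked the FPKM equalled the deposited count divided by the library total and 1 length per gene (relative difference of at most 1e-06). Library preparation was poly-T selected and sequenced as read pairs of 150 bases. Of the aligner, genome build, annotation and strand, none was stated (not given in the sources used here). Symbols were taken from the FPKM table and coordinates from GENCODE M21 (GRCm38). Promoter windows were those of RefSeq.

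Counts were analysed with edgeR 4.0.16 (limma 3.58.1, R 4.3.3): filterByExpr, TMM scaling and a robust quasi-likelihood fit of the 4 groups over all libraries, with two-sided tests of any difference, a 24-hour cosine, both 12-hour pairs and the 4 steps of 6 hours. The common biological coefficient of variation was 0.224. Calls required a p under 0.01 after Benjamini-Hochberg adjustment over all genes tested. Scripts were tested on simulated data. Alternatives were DESeq2 1.42.0, library totals, other count filters, a replicate block, leaving out libraries, a JTK rank test (each library once, Python 3.11.15) and limma on log2 FPKM with a pseudocount of 0.1 or 1. A covariate for heat shock and immediate early genes was added after the data were seen.

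The members and lists were chosen with earlier results of these data known. Named were the 10 members, up to 3 called genes per pathway list by any-time p, the 2 genes most like each called member, and the 2 highest genes of marker lists, with further names marked in the text. One marker gene is not reported here and was left out of its list. Counting intervals were not used, as precision came from the 5 animals per time, and the depth of 35.6 to 68.0 M counts left Il21r and Il5ra at few counts.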

Additional observations from a re-analysis of the deposited data

Results flagged for a closer look

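Of 40 groups of 5 libraries (10 genes at 4 times), 2 had a library standing apart from the others by Dixon's criterion (critical value 0.71), and chance flags about 1 in 20. Library 3 of ZT18 was lowest for Il21r, at 0.604 CPM with the nearest library at 0.713 CPM (gap over range 0.762). Library 5 of ZT12 was lowest for Il5ra, at 0.387 CPM with the nearest at 1.36 CPM (gap over range 0.724). Both genes had few counts and neither was called in any comparison.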

How the results depend on the processing

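Prlr was counted only at ZT18 against ZT6. Of the 9 other receptor genes, Il2rg, Tgfbr1 and Il6st were the 3 called for any difference by edgeR with every scaling, count filter and the replicate block, by DESeq2, and after the 3 epithelial-rich libraries were dropped. With the heat shock and immediate early covariate 1 was called, and 1755 of all genes against 2727. The JTK rank test called 0 of the 9 (1 at an unadjusted p under 0.05) and 123 of all genes. The cosine called 1 in place of 2 with the covariate and without the epithelial-rich libraries. Library totals in place of TMM called 959 genes at ZT12 against ZT0 (38 higher, 921 lower) against 539 (274 higher, 265 lower), with the median of all genes at -0.17 on the log2 scale, and 690 at ZT18 against ZT6 (239 higher, 451 lower) against 1151. limma on FPKM called 582 (pseudocount 0.1) and 594 (pseudocount 1) in ZT18 against ZT6. In that pair the single called member, Il6st, was lost, leaving 0, with the covariate, without the epithelial-rich libraries and with limma at either pseudocount. Over the 6-hour steps 5 calls of the 9 genes became 1 with the covariate, 3 without the epithelial-rich libraries, 8 with library totals and 9 with DESeq2. Of all genes, ZT6 against ZT0, ZT12 against ZT6, ZT18 against ZT12 and ZT0 against ZT18 called 1226, 640, 1388 and 1057 in the main fit. In the same order, the counts were 119, 6, 784 and 563 with the covariate and 948, 363, 968 and 883 without the epithelial-rich libraries. They were 687, 747, 1183 and 686 with library totals and 1550, 955, 1701 and 1303 with DESeq2. Prlr at ZT18 against ZT6 reversed from -0.07 to 0.011 with the covariate and to 0.045 without library 5 of ZT6, and was not called in either. Among the pathway genes, the ZT12 calls against ZT0 of Stat6, Tgfb1, Irf1 and Mcl1 were lost without the epithelial-rich libraries (adjusted p of 0.018 to 0.039). That of Mcl1 was also lost with no count filter (adjusted p = 0.077). At ZT18 against ZT6, limma at either pseudocount lost the calls of Stat6, Stat3, Irf1 and Ski, and the covariate lost that of Ski (adjusted p = 0.013). The cause of these changes was not tested. Leaving out 1 library gave 2357 to 2692 genes and 2 to 3 members for any difference, 1300 to 1631 and 1 to 2 for the cosine, 390 to 568 and 1 to 1 at ZT12 against ZT0, 833 to 1185 and 0 to 1 at ZT18 against ZT6, and 4 to 7 member calls over the steps. The alternatives gave 885 refits of 31 single values, 620 of them with 1 library left out, so the refits share most of their data. Of the 885, 798 kept their direction and, where tested, their side of the threshold, 83 lost the call and 2 reversed. The other 2, the untested Prlr difference of ZT12 against ZT0 by limma, moved (0.62 and 0.51 against 0.82). Replicate numbers did not pair the libraries: over 30 same-numbered pairs the correlation of deviations was -0.12 to 0.076, and 4 of 20 libraries correlated best with their own number. With the replicate block 531 genes were called at ZT12 against ZT0, 1115 at ZT18 against ZT6, 2615 for any difference and 1514 for the cosine, Irf1 at ZT12 against ZT0 lost its call, and Tgfbr1 at ZT18 against ZT12 gained one. Depth limits Il21r and Il5ra, whose 9 to 108 counts per library leave wide intervals.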

Other observations

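Other marker lists gave these summed levels over the 20 libraries. The 8 enterocyte markers summed to 41.8 to 72.6 CPM, led by Epcam at 50.6 CPM with Vil1 at 0.831 CPM, and the 8 Paneth and goblet cell markers to 1.89 to 53.8 CPM, led by Lyz1 at 4.12 CPM and Defa24 at 3.64 CPM. The 8 stromal and endothelial markers summed to 26.4 to 37.7 CPM, led by Pecam1 at 28.6 CPM and Cdh5 at 2.14 CPM, with every ZT12 library, at up to 28.4 CPM, below every library of the other times. The 5 erythroid markers summed to at most 2.66 CPM, led by Hbb-bs at 0.207 CPM and Hba-a1 at 0.113 CPM.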
